A study of Homo sapiens with 8 samples.

Results

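NFYB peaks were compared gene by gene between RH4 and RH30 cells. A gene was counted as bound when a peak overlapped the 1000 bp on either side of either end of the gene. Of 20037 protein-coding genes, 540 (2.7%) were bound in the RH4 NFYB library and in neither RH30 control library; these genes are called the RH4 side. A further 243 genes (1.21%) were bound in both RH30 controls and not in RH4 NFYB, and are called the RH30 side. The 783 genes of both sides were set beside the 2016 genes (10.1%) bound in all 3 lists, called shared genes. The RH4 side was 17.9% of the 3011 genes bound in RH4 NFYB (15% of all genes). The RH30 side was 10.8% of the 2259 genes bound in both controls. Membership was read from these 3 peak lists, so presence or absence in them is a description and carries no test.

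Both lines are established human rhabdomyosarcoma lines with the genotype PAX3-FOXO1+, the fusion oncogene of alveolar rhabdomyosarcoma. Chromatin was profiled by CUT&RUN, which cuts out and sequences the DNA beneath an antibody. RH4 cells were uninfected and untreated, with 1 library each for NFYB and NFYC. RH30 cells, made to express a cytosine base editor that rapamycin switches on, received a guide RNA, blasticidin selection and rapamycin, and were collected on day 8 of rapamycin. The guides sgCtrl1 and sgCtrl2 were the controls. The guides sgCCAAT2a and sgCCAAT2b were aimed at a CCAAT motif of the PAX3 promoter, and their libraries are called edited here, although editing was not analysed. Each guide had 1 NFYB library. The RH30 libraries carry RH4 as source name and cell line in the labels and are called RH30 after their titles and the treatment text. Cell line, guide and drug treatment, and peak calling all differ between the RH4 and RH30 lists, so their parts in a difference cannot be told apart. With 1 library per condition there is no replicate error and no test between lines. All intervals are exact Clopper-Pearson 95% intervals and cover the counting of genes only, and neighbouring genes can share a peak.

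NF-Y binds DNA as a complex of 3 proteins. Its subunits NFYB and NFYC pair through histone-like folds, and NFYA then reads the CCAAT sequence, which is most often found a short distance upstream of transcription starts. NF-Y is known as an activator of promoters for cell cycle, histone, lipid synthesis and protein folding genes.

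Promoters that carry CCAAT under the deciding peak are printed as examples. They were chosen for carrying it, so they cannot show how often a side had it. The sequences are on the strand of the gene, from RefSeq on GRCh38.p14, and end at the base before the annotated start. Capitals mark CCAAT or its reverse complement ATTGG. Among the 5 RH4-side genes with the widest peaks and a box in the promoter, the boxes of SLC43A2, COPS3 and ZNF436 lay inside the RH4 NFYB peak. Of the 5 RH30-side genes chosen likewise by early place in the control files, MEAK7 and the divergent pair H2AC11 and H2BC11 had boxes inside both control peaks.
SLC43A2, chr17:1628417-1628576, minus strand: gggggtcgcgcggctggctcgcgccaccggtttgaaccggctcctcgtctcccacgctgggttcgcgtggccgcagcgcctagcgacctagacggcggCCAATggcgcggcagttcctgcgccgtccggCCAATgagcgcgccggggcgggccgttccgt
COPS3, chr17:17280699-17280858, minus strand: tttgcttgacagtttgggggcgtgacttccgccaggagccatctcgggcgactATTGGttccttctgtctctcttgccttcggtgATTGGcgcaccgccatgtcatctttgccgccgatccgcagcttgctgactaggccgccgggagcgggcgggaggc
ZNF436, chr1:23368336-23368495, minus strand: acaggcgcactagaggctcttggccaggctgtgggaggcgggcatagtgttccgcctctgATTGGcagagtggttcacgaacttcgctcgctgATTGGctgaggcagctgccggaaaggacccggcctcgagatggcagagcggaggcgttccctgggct
MEAK7, chr16:84504660-84504909, minus strand: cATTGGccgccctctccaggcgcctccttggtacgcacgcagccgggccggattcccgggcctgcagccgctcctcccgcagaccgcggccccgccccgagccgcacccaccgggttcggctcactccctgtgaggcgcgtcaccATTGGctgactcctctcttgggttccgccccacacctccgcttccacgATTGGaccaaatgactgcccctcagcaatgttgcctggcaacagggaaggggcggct
H2AC11, chr6:27132793-27133042, plus strand: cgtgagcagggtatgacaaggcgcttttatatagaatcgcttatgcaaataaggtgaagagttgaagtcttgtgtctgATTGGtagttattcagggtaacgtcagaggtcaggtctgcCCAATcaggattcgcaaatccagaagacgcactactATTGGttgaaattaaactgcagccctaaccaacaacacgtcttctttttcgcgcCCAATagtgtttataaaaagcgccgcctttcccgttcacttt
The other promoters chosen by the same rule were DYRK1B, FBL, SRGAP2C and RMND5A, whose boxes lay outside the deciding peak, and H2BC11, which reads the H2AC11 interval from the other strand.

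SLC43A2, an amino acid transporter, had boxes centred 60 and 29 bases upstream of its start, both inside the RH4 NFYB peak at chr17:1628417-1629129 and inside an RH4 NFYC peak. COPS3, a subunit of the COP9 signalosome, had boxes 105 and 73 bases upstream, both under RH4 NFYB and NFYC, and 1 of them under an sgCCAAT2a peak. ZNF436, a zinc finger gene, had boxes 98 and 65 bases upstream under RH4 NFYB and NFYC. These were also covered by an sgCtrl1 peak, which lay 1382 bp from the outer end of the gene and so outside the window. MEAK7, a gene linked to mTOR signalling, had boxes 247, 103 and 55 bases upstream, of which 2 lay inside the sgCtrl1 peak and 2 inside the sgCtrl2 peak. H2AC11 and H2BC11 encode histones H2A and H2B and are read in opposite directions from 1 interval with 4 boxes. Of these boxes, 2 lay inside the sgCtrl1 peak and 3 inside the sgCtrl2 peak, and both edited libraries also had peaks there.

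The call of a side rested on how many control libraries were asked for. Besides the 783 genes and the shared genes, 823 genes were bound in sgCtrl2 alone, 92 in sgCtrl1 alone, 282 in RH4 and sgCtrl2, and 173 in RH4 and sgCtrl1. When sgCtrl1 was left out and sgCtrl2 alone stood for RH30, the RH30 side had 1066 genes. When sgCtrl2 was left out, the RH4 side had 822 genes. The control lists themselves differed in size, with 4025 peaks from 13.9 M tags for sgCtrl1 and 6687 peaks from 10.5 M tags for sgCtrl2. The RH4 NFYB list held 3243 peaks, and the depth behind it is unknown. On the RH30 side, 229 of 243 genes (94.2%) had an sgCtrl1 peak and an sgCtrl2 peak that overlapped each other. The other 14 genes, PSMD9 and POLR2A among them, had control peaks at separate positions in the windows.

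**Figure D1:**
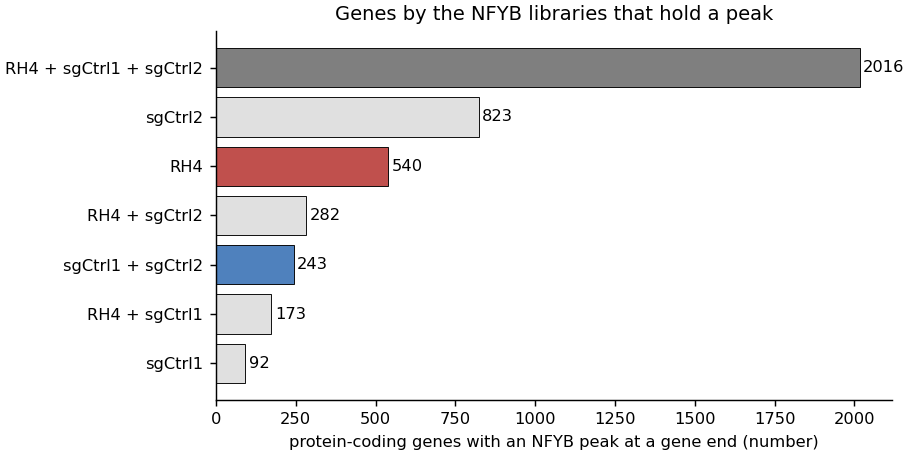
Number of protein-coding genes (horizontal axis) for each combination of the RH4 NFYB, sgCtrl1 and sgCtrl2 lists with a peak at a gene end; red marks the 540 RH4-side genes, blue the 243 RH30-side genes and dark grey the 2016 shared genes. The sgCtrl2 list alone held 823 genes, more than either side.

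The members came from 445 loci with 448 distinct RH4 NFYB peaks on the RH4 side, of which 91 loci held more than 1 gene. The RH30 side came from 208 loci, 34 of them with more than 1 gene. No locus held more than 3 genes. For most members the closest peak of the other line was far from the window. The median distance from the nearer gene end to the closest peak of the other line was 54640 bp on the RH4 side and 89477 bp on the RH30 side. That peak lay within 10000 bp for 16.5% of the RH4 side and 14.8% of the RH30 side. Just outside the threshold stood the RH4-side genes EME2, POLGARF, TRADD and ATF5, with a control peak 1002, 1007, 1008 and 1011 bp away. On the RH30 side the closest were TEX2, CFL1, FANCM and CCR10, with an RH4 peak 1153, 1186, 1201 and 1586 bp away. Just inside it, and so shared, were RAP2A, with a control peak at 988 bp, and ZMYM3, with an RH4 peak at 985 bp.

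With both controls required, peaks that the rule did not use were found at a larger share of genes on the side of the same cell line. RH4 NFYC peaks were found at 371 of 540 RH4-side genes (68.7%, interval 64.6 to 72.6%) and at 101 of 243 RH30-side genes (41.6%, 35.3 to 48.0%), against 15.3% of all genes. Thus a part of the RH30 side, such as PER1, FADS2 and CFL1, carried the partner subunit in RH4 without a called NFYB peak. Peaks in both edited libraries were found at 78 RH30-side genes (32.1%, 26.3 to 38.4%), against 8.12% of all genes. On the RH4 side, 17 genes (3.15%, 1.84 to 4.99%) had peaks in both, under the 8.12% of all genes. A peak in either edited library was found at 118 RH30-side genes (48.6%, 42.1 to 55.0%). It was found at 44 RH4-side genes (8.15%, 5.98 to 10.8%), near the 10% of all genes. These readouts share the cell line, and in RH30 also the peak calling, with the lists that chose the members. When sgCtrl1 was left out, the NFYC share of the RH30 side was 17.6%, against 15.3% of all genes. Its share in both edited libraries was then 7.60%, under the 8.12% of all genes. The RH4-side share in either edited library, a different measure, was 21.9%, against 10% of all genes.

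These peaks were at a larger share of shared genes than of either side. Of the 2016 shared genes, 96.8% had an RH4 NFYC peak and 70.4% a peak in both edited libraries. No NFYC peak and no edited peak was found at 168 RH4-side genes (31.1%), 80 RH30-side genes (32.9%) and 44 shared genes (2.18%). Among sgCtrl2 peaks at RH30-side genes, 53.1% of 213 were listed over sgCCAAT2a and 54.0% over sgCCAAT2b in the authors' deposited tables of differential peaks. For the 1748 sgCtrl2 peaks at shared genes the authors' deposited tables gave 44.3% and 35.5%, and for all 6687 sgCtrl2 peaks 61.9% and 60.7%. Of the 213 peaks, 9 (4.23%) stood in the authors' deposited table that sets sgCtrl2 above sgCtrl1.

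**Figure D2:**
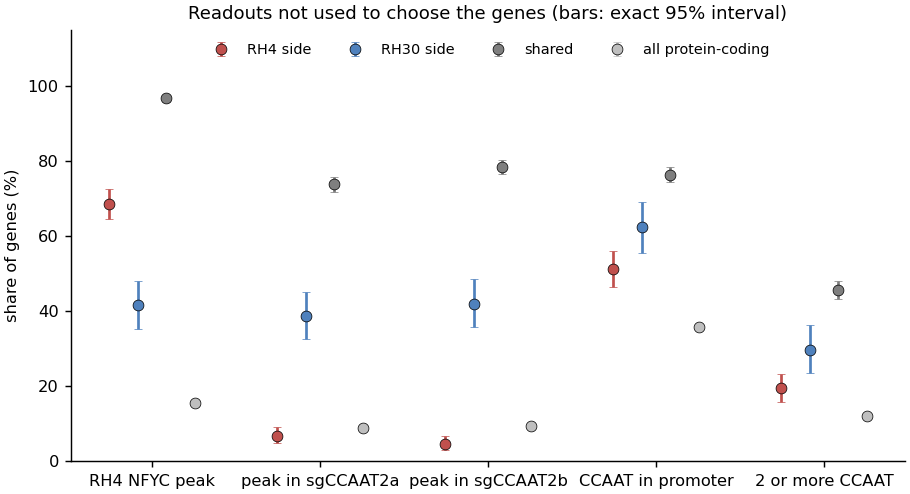
Share of genes in percent (vertical axis) with an RH4 NFYC peak, with a peak in each edited library, and with CCAAT in the promoter, for each gene class. CCAAT is shown as at least 1 and as 2 or more, the latter contained in the former. Points are shares and bars exact 95% intervals. NFYC peaks were at 68.7% of the RH4 side and 41.6% of the RH30 side, and the sgCCAAT2a share was 6.67% and 38.7%.

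CCAAT was found in a smaller share of the promoters of either side than of shared genes. The motif searched was CCAAT on either strand, that is CCAAT or ATTGG, in the 300 bases from 250 before to 50 after the annotated start. It was present in 230 of 449 RH4-side promoters (51.2%, 46.5 to 55.9%), 127 of 203 RH30-side promoters (62.6%, 55.5 to 69.2%) and 1320 of 1727 shared promoters (76.4%). Of all 15842 promoters of that length, 35.8% held it, and of the promoters of genes with no peak in the 6 lists 28.4%. Members without a RefSeq promoter sequence, 91 on the RH4 side and 40 on the RH30 side, are not in these shares. CCAAT followed by C or G and then by A or G was found in 35.2% of RH4-side, 47.8% of RH30-side, 62.0% of shared and 19.8% of all promoters. At least 2 CCAAT were found in 19.4%, 29.6%, 45.6% and 12.1% in the same order. Median GC content was 64.3%, 64.0% and 64.7% on the RH4 side, the RH30 side and in shared promoters. When sgCtrl1 was left out, the RH30-side share with CCAAT was 38.5%.

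The share of promoters with CCAAT was also compared within each side by the readouts that the rule did not use. RH4-side genes with an RH4 NFYC peak had CCAAT in 181 of 308 promoters (58.8%, 53.0 to 64.3%), and those without in 49 of 141 (34.8%, 26.9 to 43.2%), close to the 35.8% of all promoters. RH30-side genes with an RH4 NFYC peak had it in 60 of 88 (68.2%, 57.4 to 77.7%) and those without in 58.3% (48.7 to 67.4%), with overlapping intervals. RH30-side genes with peaks in both edited libraries had it in 50 of 65 (76.9%, 64.8 to 86.5%), and those with neither in 54 of 102 (52.9%, 42.8 to 62.9%). Median GC content moved along with the split by edited peaks, at 59.3% and 66.7%; its part was not tested. Where the deciding peak covered the gene's own promoter window, 64.1% of 312 RH4-side, 75.3% of 146 RH30-side and 88.8% of 1364 shared promoters held CCAAT. Inside the peak itself CCAAT was found at 58.0% of these 312 RH4-side genes. On the RH30 side it was 70.8% of 137 genes covered in sgCtrl1 and 66.0% of 141 covered in sgCtrl2. For covered shared genes it was 85.3% in RH4 NFYB, 86.5% in sgCtrl1 and 83.9% in sgCtrl2. The stretch covered, and so searched, differed in RH4 NFYB, with a median of 222 bases on the RH4 side and 300 at shared genes. In sgCtrl1 and sgCtrl2 it was 189 and 183 bases on the RH30 side, and 189 and 195 at shared genes. The part of covered length was not tested.

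Members of both sides were bound at their 5′ ends. With the strand known, the deciding peak was at the 5′ end alone for 411 of 449 RH4-side genes (91.5%) and 188 of 203 RH30-side genes (92.6%). It was at the 3′ end alone for 33 RH4-side genes (7.35%), of which 24 were also within the window of another gene's start, and for 5 RH30-side genes (2.46%). The peak of EME2 lay 9970 bases downstream of the listed start, and that of FBL, which encodes the nucleolar protein fibrillarin, 12539.5 bases downstream, at the start of its neighbour DYRK1B. A start of another gene on the opposite strand lay within 1000 bp of the start for 24.9% of the RH4 side, 25.1% of the RH30 side, 26.9% of shared genes and 13.6% of all genes.

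The RH4 NFYB peaks of the RH4 side were centred a median of 153.25 bases upstream of the annotated start, with quartiles at 56.4 and 369. Control peaks of the RH30 side were centred a median of 99.0 bases upstream, with quartiles at 27.0 and 296. At shared genes the RH4 peaks had a median of 145.25 and the control peaks a median of 133 bases upstream. The fullest interval of 50 bp began 150 bases upstream for the RH4 side, with 13.9% of peaks, and 100 bases upstream for the RH30 side, with 20.1%. The position of the fullest interval thus differed by 1 interval between the sides. RH4 peaks are wider and vary in width, and control peaks have 1 fixed width per library.

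**Figure D3:**
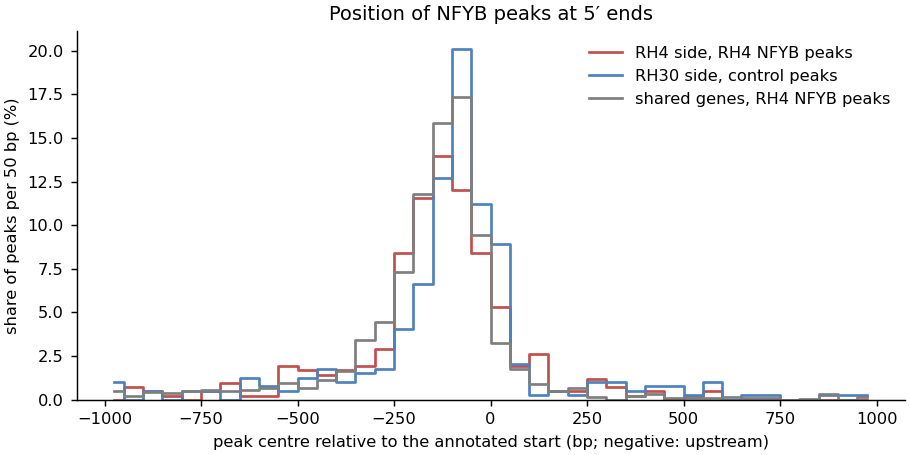
Share of NFYB peaks in percent per 50 bp (vertical axis) by the distance of the peak centre from the annotated start in bp (horizontal axis, negative values upstream), for RH4 NFYB peaks of the RH4 side, control peaks of the RH30 side and RH4 NFYB peaks of shared genes. The RH4-side line peaks at 13.9% and the RH30-side line at 20.1%, both within 150 bp upstream of the start.

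Peaks of the members were narrower or later in the files than those of shared genes. The widest RH4 NFYB peak of a gene had a median width of 310 bp on the RH4 side (quartiles 238 and 419.25) and 447.5 bp at shared genes (quartiles 380 and 516). The files give no peak heights, so the place of an entry in the file stands in for a score in RH30. The median place was 60.8% of the way down the sgCtrl1 file for the RH30 side and 27.0% for shared genes. In the sgCtrl2 file it was 36.6% and 16.1%. A peak in the first 50% of the sgCtrl1 file was found for 24.3% of the RH30 side and 83.4% of shared genes. Counted by peaks, 636 of 3243 RH4 NFYB peaks (19.6%) overlapped no control peak, and 72.0% of these lay at gene ends. No RH4 NFYB peak was overlapped by 1706 of 4025 sgCtrl1 peaks (42.4%) and 4290 of 6687 sgCtrl2 peaks (64.2%). Of these control peaks, 19.8% in sgCtrl1 and 23.6% in sgCtrl2 lay at gene ends, so most are outside the gene counts here.

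The 15 RH4-side genes with the widest peaks were spread over several processes. DYRK1B, a protein kinase, and FBL shared the widest peak, 718 bp at chr19:39833481-39834198. SLC43A2 followed with 713 bp, and MBOAT7, an acyltransferase of phosphatidylinositol, and TSEN34, a subunit of the tRNA splicing endonuclease, shared a peak of 709 bp. COPS3 had 699 bp, ZNF436 680 bp, and SMAD2, which carries the TGF-beta signal to the nucleus, 679 bp at chr18:47930754-47931432. FAM204A (678 bp), EME2, a partner of the MUS81 nuclease (643 bp), and TIAM1, an activator of the GTPase RAC (637 bp), came next. LENG1 and TMC4 shared 617 bp, PPP1R3B, a glycogen-targeting subunit of protein phosphatase, had 612 bp, and NARF, a lamin-binding protein, 610 bp. An RH4 NFYC peak was present at 14 of these 15, the exception being SLC43A2, whose NFYC peaks lay outside the window. A peak in either edited library was present at 4 of them, COPS3, ZNF436, EME2 and NARF.

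The 15 RH30-side genes earliest in the control files mostly had edited peaks too. FAM72B and SRGAP2C shared a peak at place 37 of the sgCtrl1 file and place 60 of the sgCtrl2 file. Both are recent duplicates with near-identical copies elsewhere on chromosome 1, so the place of their reads is uncertain. RMND5A, a subunit of a ubiquitin ligase, stood at places 768 and 514, INHBE, an inhibin subunit, at 776 and 1640, and MEAK7 at 1027 and 1234. RPS6KA4, a kinase that acts on histone H3, stood at 986 and 1384, with both control peaks past its 3′ end. H2AC11 with H2BC11 stood at 1177 and 1132. PER1, a repressor of the circadian clock, had its sgCtrl1 peak at chr17:8152386-8152574, 76 bases upstream of its start, at places 1265 and 1011. HOXB7 stood at 1528 and 582, PNRC2, a factor of mRNA decay, at 1328 and 947, and FADS2, a desaturase of fatty acids, at 1633 and 1008. GSTO2, PPFIA1 and CFL1, which encodes the actin-severing protein cofilin, completed the group. Peaks in both edited libraries were present at 12 of the 15, the exceptions being HOXB7, FADS2 and PPFIA1, and an RH4 NFYC peak at 6.

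Functional lists held 119 RH4-side genes (22.0%), 57 RH30-side genes (23.5%), 23.3% of shared genes and 17.7% of all protein-coding genes. In 23 of the 44 lists the RH4-side share was above that of all genes, in 24 the RH30-side share, and in 29 the shared share. A list's share is a description, and several rest on 1 to 4 genes. Each is to be read beside the 2.7% (RH4 side) and 1.21% (RH30 side) of all genes. At these shares a small list can hold 0 members, so a 0 is not read as a difference between the lines. Without sgCtrl1 the RH30-side count was more than 1.5 times higher in 34 of the 44 lists and the RH4-side count in 11, and without sgCtrl2 in 10 and 15. Lists of processes known for NF-Y differed in how many genes were shared, against 10.1% of all genes. The shared share was 24.6% of 69 replication-dependent histones and 43.8% of 32 genes of cholesterol and fatty acid synthesis. It was 36.5% of 52 replication genes and 13.6% of 81 chaperones of the HSP, DNAJ and CCT families. Of 26 genes of folding in the endoplasmic reticulum, 19 were shared and 1 was on the RH4 side, the disulfide isomerase PDIA4, and 0 were on the RH30 side. Of 50 mitosis genes, 28 were shared and 3 were on the RH4 side. Of 18 NF-Y subunits and promoter partners, 10 were shared and 0 were on either side.

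The 3 mitosis genes of the RH4 side (6% of the list, against 2.7% of all genes) were CCNA2, PRC1 and SGO1. CCNA2 encodes cyclin A2, which drives S and G2 phase, and its RH4 NFYB peak at chr4:121823789-121824062 was centred 42.5 bases upstream of the start. PRC1 organises the spindle midzone, and SGO1 protects the cohesion of centromeres. All 3 had an RH4 NFYC peak, a CCAAT in the promoter and no edited peak. Of 52 replication genes, MCM10 and RPA1, which encode an initiation factor and a subunit of the single-strand binding protein, were on the RH4 side. POLA1, the catalytic subunit of DNA polymerase alpha, was on the RH30 side, and 19 were shared. Of 56 repair genes, FANCM, a translocase of the Fanconi pathway, was on the RH30 side, 0 were on the RH4 side, and 20 were shared. FANCM also had an RH4 NFYC peak, centred 49.5 bases upstream of its start, and an RH4 NFYB peak lay 1201 bp away. With a window of 3000 bp, or absence within 10000 bp, 0 repair genes were on the RH30 side. Without sgCtrl1 the RH4 side held 6 mitosis genes, and the RH30 side 5 replication and 6 repair genes.

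Protein production gave several RH4-side members, set beside 2.7% of all genes on the RH4 side and 1.21% on the RH30 side. The secretory list had 5 of 41 genes on the RH4 side (12.2%) and 1 on the RH30 side. SPCS1, SPCS3 and SEC11C are subunits of the signal peptidase, SEC61G belongs to the translocation channel, and COPG2 to the COPI vesicle coat. The RH4 NFYB peak of SPCS3 lay at chr4:176319649-176320032, and the closest control peak was 2534179 bp away. SRP14, of the signal recognition particle, was on the RH30 side. Of 38 aminoacyl-tRNA synthetases, which load tRNAs, 4 were on the RH4 side (10.5%), HARS2, WARS2 and YARS1 among them, and 0 on the RH30 side. By the annotated start alone, a setting chosen after seeing the data, 1 synthetase was on the RH4 side. That setting cannot call genes without a promoter sequence, so members can be lost for this reason alone. Without sgCtrl1, 5 secretory genes were on the RH30 side.

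Of 90 cytosolic ribosomal proteins, 6 were on the RH4 side (6.67%, against 2.7% of all genes), RPL28, RPL35A, RPLP2, RPS16 and RPS9 among them. RPL10 and RPL14 were on the RH30 side (2.22%, against 1.21% of all genes). The RH4 side held 4 of 50 proteasome subunits, PSMA2, PSMB1, PSMB3 and PSMD10, all with an RH4 NFYC peak, and PSMD9 was on the RH30 side. PSMA2 shared its peak at chr7:42932037-42932452 with the divergent neighbour MRPL32, a mitochondrial ribosomal protein. Of 70 translation factors, EEF1A1, which brings tRNAs to the ribosome, EIF3D and EIF4EBP1 were on the RH4 side (4.29%). EIF5A2 was on the RH30 side (1.43%). Of 81 chaperones, DNAJA3, DNAJC1, DNAJC16, DNAJC27, HSPA14 and HSPA9 were on the RH4 side (7.41%) and CCT6B, a subunit of the CCT chaperonin, on the RH30 side. Without sgCtrl1 the RH30 side held 6 ribosomal proteins, 4 proteasome subunits and 10 translation factors, and without sgCtrl2 the RH4 side held 7 translation factors.

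RNA processing genes were on both sides, set beside 2.7% of all genes on the RH4 side and 1.21% on the RH30 side. Of 94 spliceosome, SR and hnRNP genes, 7 were on the RH4 side (7.45%), HNRNPA0, HNRNPA2B1, HNRNPD, PRPF31, PRPF8, SNRNP70 and U2AF2. PRPF8 forms the core of the spliceosome, SNRNP70 belongs to the U1 particle and U2AF2 binds the polypyrimidine tract before the 3′ splice site. HNRNPM, LSM10, which belongs to the histone mRNA processing particle, and SF3B2 were on the RH30 side, and 20 genes were shared. Of 59 Mediator, Integrator and RNA polymerase II genes, the Integrator subunits INTS14, INTS3, INTS6 and INTS8 were on the RH4 side. INTS6L and POLR2A, the largest subunit of RNA polymerase II, were on the RH30 side. The control peaks of POLR2A stood apart, centred 863 bases upstream of the start in sgCtrl1 and 395 bases downstream in sgCtrl2. Of 61 nuclear transport genes, AAAS, NUP42 and NUP62CL were on the RH4 side (4.92%) and 0 on the RH30 side. Without sgCtrl1 the spliceosome list had 11 and 5 genes on the RH4 and RH30 side, and the RH30 side held 5 genes of the polymerase list and 4 of nuclear transport. Without sgCtrl2 the RH4 side held 12 spliceosome genes and 8 of the polymerase list.

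Metabolic genes were found on both sides, set beside 2.7% of all genes on the RH4 side and 1.21% on the RH30 side. Of 32 genes of cholesterol and fatty acid synthesis, 14 were shared. DHCR7, which makes the last step to cholesterol, INSIG1, which holds back the sterol sensor, and TM7SF2, a sterol reductase, were on the RH4 side. The RH30 side held 3, among them the desaturases FADS1 and FADS2, which share 1 control peak. Of 20 genes of serine, one-carbon and amino acid synthesis, 3 were on the RH4 side (15% of the list), all with NFYC, among them ATF5 and CEBPG, regulators of amino acid stress genes. PHGDH, the first enzyme of serine synthesis, was on the RH30 side, with no NFYC and no edited peak. A control peak lay 1011 bp from ATF5, just outside the window, and within 1000 bp of its annotated start. Of 86 oxidative phosphorylation subunits, NDUFA10, NDUFA3, NDUFA6 and UQCR11 were on the RH4 side (4.65%) and 0 on the RH30 side (4 without sgCtrl1). Of 44 autophagy and lysosome genes, 4 were on the RH4 side (9.09%), ATG2A, ATG3 and CTSL among them, and 0 on the RH30 side.

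Replication-dependent histones were the list with the most RH30-side members for its size among those of at least 40 genes. Of 69 genes, 9 were on the RH30 side (13.0%), H2AC11, H2AC12, H2BC11, H2BC12, H2BC18, H3C1, H4C1 and H4C2, and H3C13, named after its values were seen; 17 were shared. Peaks in both edited libraries were found at 8 of the 9, H4C2 being the exception, and an RH4 NFYC peak at 1, H3C1. The RH4 side held 4, the divergent pair H2AC25 and H2BC26 on chromosome 1 and the pair H2BC9 and H3C7 on chromosome 6, all with NFYC and none with an edited peak. The pair H2AC25 and H2BC26 shared a peak of 579 bp at chr1:228457698-228458276. Several RH30-side histones share control peaks, as H2AC11 does with H2BC11, H2AC12 with H2BC12 and H2BC18 with H3C13. Histone genes have near-identical copies, so reads can be split or misplaced among them. The RH30-side count ran from 6 to 11 over the settings other than the one keeping 50% of each list, where it was 2. The 6 was by the annotated start, which cannot call genes without a promoter sequence. With either control left out it was 11 and 9.

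Zinc finger genes of chromosome 19 were found on both sides. Of 250 ZNF genes there, 16 were on the RH4 side (6.40%), 9 on the RH30 side (3.60%) and 45 shared. The RH4 side held ZNF100, ZNF132, ZNF146, ZNF383, ZNF430, ZNF471 and 10 more, of which 13 had an RH4 NFYC peak and 0 an edited peak. The RH30 side held ZNF14, ZNF414, ZNF440, ZNF441, ZNF443, ZNF625 and 3 more. Of these 9, an RH4 NFYC peak was found at 7 and peaks in both edited libraries at 6. When RH4 presence was read from NFYB or NFYC, a setting chosen after seeing the data, the RH30 side held 2 of the list. Without sgCtrl1 it held 19. Outside chromosome 19, 11 of 267 ZNF genes were on the RH4 side and 4, ZNF503, ZNF519, ZNF608 and ZNF830, on the RH30 side (23 without sgCtrl1). Many of the ZNF genes on chromosome 19 come from recent duplications, so reads can be misplaced among them.

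HOX genes, which set position along the body axis, had 3 of 40 members on the RH30 side (7.50%), HOXB2, HOXB4 and HOXB7, all in the HOXB cluster of chromosome 17. None of them had an RH4 NFYC peak. The control peaks of HOXB7 lay at chr17:48611099-48611287 in sgCtrl1 and chr17:48611090-48611286 in sgCtrl2, and the closest RH4 NFYB peak was 117738 bp away. HOXD1 was on the RH4 side, with an NFYC peak and 1 CCAAT in its promoter. Without sgCtrl1, 5 HOX genes were on the RH30 side, and without sgCtrl2, 4 were on the RH4 side. Lists of the cell surface and matrix had RH30-side shares near or under the 1.21% of all genes and 0 members on the RH4 side. Each held 1 RH30-side gene, which was PCDH10 of 66 protocadherins, COL5A1, a fibrillar collagen chain, of 56 collagens and laminins, and KCNJ2, a potassium channel, of 136 ion channels. Without sgCtrl1 the RH30 side held 3, 3 and 4 genes of these lists, and without sgCtrl2 it held 2 ion channels and the RH4 side 1.

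The lists of muscle and of rhabdomyosarcoma each had 1 or 2 members on either side. On the RH4 side were 2.38% of myogenic genes, 8.33% of PAX3-FOXO1 targets and 4.35% of receptor kinases and oncogenes, against 2.7% of all genes. On the RH30 side the shares were 4.76%, 4.17% and 4.35% in the same order, against 1.21%. Of 42 myogenic genes, 33 had no peak in the 3 NFYB lists, close to the share of all genes without one (15868 of 20037, 79.2%), and 4 were shared. No peak was found at 17 of 24 PAX3-FOXO1 targets and at 15 of 23 receptor kinases and cell cycle oncogenes, both below that 79.2%. MYOD1, the transcription factor that starts muscle differentiation, was on the RH30 side. Its control peaks lay at chr11:17719376-17719564 in sgCtrl1 and chr11:17719379-17719575 in sgCtrl2, at places 2088 and 2364 of the files, at the lower-coordinate end of the gene, 17719571. The closest RH4 NFYB peak was 442644 bp away, and no NFYC or edited peak was found at the gene. SIX4, a homeobox factor of muscle precursors, was also on the RH30 side, and CKM, the muscle creatine kinase, on the RH4 side with a peak at its 3′ end. ABAT and ADAM10, reported in the field as PAX3-FOXO1 targets, were on the RH4 side. ERBB3 was on the RH4 side and PDGFRB on the RH30 side, both receptor kinases. Without sgCtrl1 the RH30 side held 4 myogenic genes. PAX3 and the cell cycle kinase CDK4 were shared, and FOXO1 had a peak in sgCtrl2 and in RH4 NFYC and so was on neither side.

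**Figure D4:**
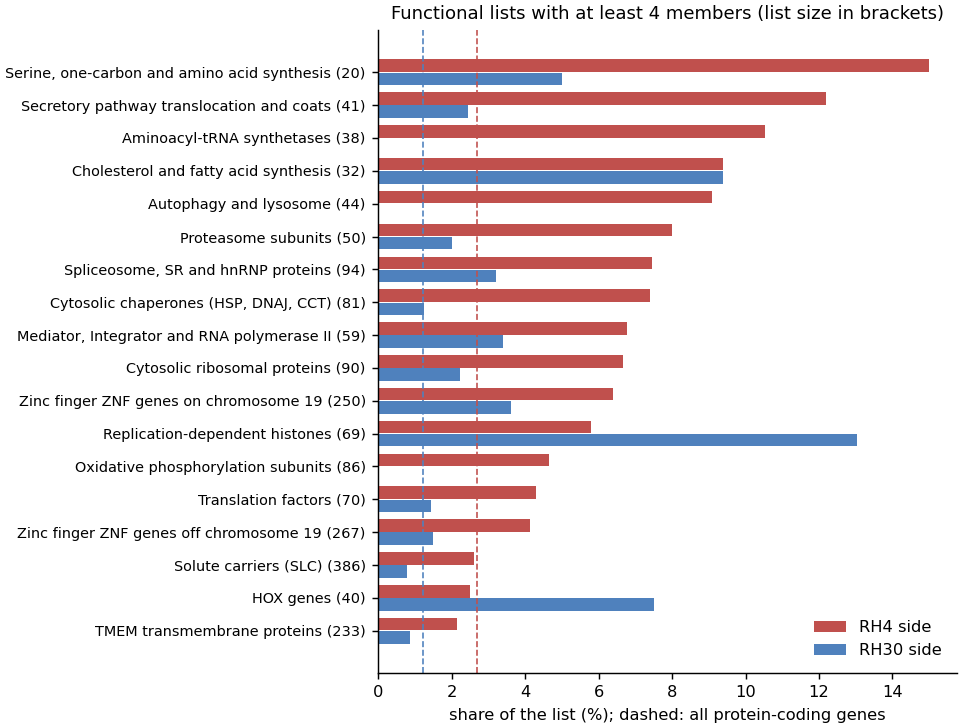
Share of each functional list in percent (horizontal axis) on the RH4 side (red) and the RH30 side (blue), for lists with at least 4 members on the 2 sides together, with list size in brackets and dashed lines at the shares of all protein-coding genes, 2.7% and 1.21%. Histones (13.0%) and HOX genes (7.50%) have the longer bar on the RH30 side, and the secretory list (12.2%) on the RH4 side.

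Several lists had 0 members on either side, 9 of 44 in all. They included olfactory receptors (392 genes), keratins (149) and the marker lists of blood (18) and liver (15) cells, which had 0 shared genes too. Kinesins (42 genes, 9 shared), mitochondrial import (26 genes, 6 shared) and glycolysis (24 genes, 4 shared) also had 0 members on either side. With 2.7% of all genes on the RH4 side and 1.21% on the RH30 side, 0 members does not set lists of at most 42 genes apart. Solute carriers, with 10 of 386 on the RH4 side and 3 on the RH30 side, and TMEM genes, with 5 and 2 of 233, had shares close to or under those of all genes. Without sgCtrl1 the RH30 side held 23 solute carriers, 12 TMEM genes, 2 kinesins, 3 glycolysis genes and 3 olfactory receptors.

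Both sides were spread over the chromosomes, with 0 members on Y. On the RH4 side chromosome 19 held 74 genes, chromosome 1 held 58 and chromosome 17 held 40. On the RH30 side chromosome 17 held 28 genes, chromosome 19 held 27 and chromosome 11 held 24. The RH4 side made up 69.0% of the 783 members (interval 65.6 to 72.2%). On chromosome 4 it was 19 of 20 members (95%, 75.1 to 99.9%), the RH30-side gene there being PCDH10. On chromosome 16 it was 83.8% (68.0 to 93.8%) and on chromosome 20 88.9% (65.3 to 98.6%). It was lowest on chromosome 6, with 10 of 23 members (43.5%, 23.2 to 65.5%), where the histone clusters lie.

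The sides were also set against the genes bound in the same line. The RH4-side share of genes bound in RH4 NFYB ran from 10.1% on chromosome 6 to 37.0% on chromosome 18, and the RH30-side share of genes bound in both controls from 2.33% on chromosome 4 to 21.1% on chromosome 18. Chromosome 19 was dense in bound genes, with 405 bound in RH4 NFYB, of which 18.3% (14.6 to 22.4%) were on the RH4 side, near the 17.9% of all chromosomes. The interval was 4.95 to 17.8% for chromosome 6 and 19.4 to 57.6% for chromosome 18, the latter from 10 of 27 genes. On the RH30 side the interval was 6.05 to 45.6% for chromosome 18, from 4 of 19 genes, and 0.0589 to 12.3% for chromosome 4. Chromosome 17 had 16.3% (11.1 to 22.7%) and chromosome 16 had 4.80% (1.78 to 10.2%), against 10.8% over all. No correction was made for looking at every chromosome. Without sgCtrl1 the RH30 side of chromosomes 4, 6, 16, 17, 19 and 20 had 20, 51, 57, 96, 95 and 21 genes, and without sgCtrl2 the RH4 side of chromosome 4 had 36.

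**Figure D5:**
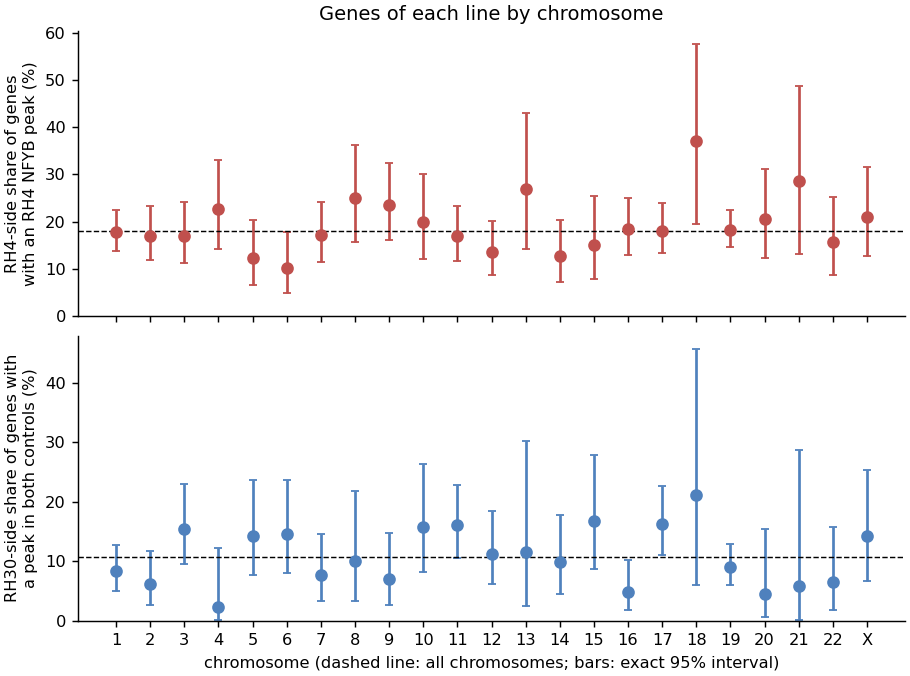
Share in percent (vertical axes) of genes bound in RH4 NFYB that were on the RH4 side (upper panel) and of genes bound in both controls that were on the RH30 side (lower panel), by chromosome (horizontal axis); bars are exact 95% intervals and dashed lines the values of all chromosomes, 17.9% and 10.8%. Chromosome 18 stands at 37.0% in the upper panel with a wide interval, and chromosome 4 at 2.33% in the lower panel.

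Members of a side also lay near each other. Intervals of 1 Mb were counted, and 17 held at least 4 RH4-side genes and 5 held at least 4 RH30-side genes. Genes that share a peak form 1 locus, and these intervals held from 2 to 6 loci. Some were dense in bound genes, such as chr19:49000001-50000000 with 15 shared genes beside 5 of the RH4 side. How often intervals of like gene density hold so many members was not tested. The fullest for the RH4 side was chr19:54000001-55000000, with NDUFA3, TFPT, PRPF31, LENG1, TMC4, MBOAT7, TSEN34, RPS9 and LENG8. These 9 genes came from 6 loci, and all had an RH4 NFYC peak and 0 an edited peak. Of the 40 genes in that interval 1 was shared. The interval chr11:1-1000000 held 7 RH4-side genes from 4 loci. Among them were HRAS, the RAS oncogene, whose RH4 NFYB peak lay at chr11:535395-535796, and the ribosomal gene RPLP2. An interval of chromosome 8 held 5, including CCNE2, which encodes cyclin E2, VIRMA, of the m6A writer complex, and RAD54B, a recombination factor. For the RH30 side the fullest was chr6:26000001-27000000, with H3C1, H4C1 and H4C2 and the butyrophilin genes BTN3A2, BTN2A2 and BTN2A1, which act in T cell recognition. Of these 6 genes, 5 had an edited peak. The interval chr11:64000001-65000000 held members of both sides, 5 of the RH4 side such as the tumour suppressor MEN1 and the nuclear receptor ESRRA, and 4 of the RH30 side such as RPS6KA4.

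Some runs lay in intervals between neighbouring peaks of the other line that held no peak at all; these were picked after their values were seen. Between 2 control peaks, the interval chr17:35587468-39196855 (3609 kb, 65 genes) held 8 RH4 NFYB and 8 NFYC peaks, 0 control peaks and 1 peak in each edited library. Its 9 RH4-side genes were TAF15, ZNHIT3, MYO19, GGNBP2, LHX1, EPOP, PSMB3, PIP4K2B and CWC25. TAF15 is an RNA-binding partner of the general transcription factor TFIID, and LHX1 a LIM homeobox factor. Directly before it, the interval chr17:31937309-35567828 between RH4 NFYB peaks (3631 kb, 36 genes) held 0 RH4 NFYB and 0 NFYC peaks. It held 8 sgCtrl1 and 9 sgCtrl2 peaks, with CCT6B, ZNF830, LOC105371932 and the Schlafen genes SLFN5 and SLFN12 on the RH30 side.

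The interval chr11:266285-1260558 (44 genes) held 5 RH4 NFYB and 9 NFYC peaks and 0 in all 4 RH30 lists. The intervals chr19:54137177-55087064 (36 genes) and chr17:1463566-1921218 likewise held 6 and 4 RH4 NFYB peaks and 0 in all 4 RH30 lists. The latter contained SLC43A2, PRPF8, WDR81, SMYD4 and RPA1. In chr19:20565947-21082050, the zinc finger genes ZNF626, ZNF66, ZNF85 and ZNF430 stood on the RH4 side, with 5 RH4 NFYB peaks and 0 in all 4 RH30 lists. For the RH30 side, chr6:26660007-27838237 held 0 RH4 NFYB peaks, 1 NFYC peak, 4 sgCtrl1 and 5 sgCtrl2 peaks, with H2BC11, H2AC11, H2BC12 and H2AC12. Of 8044 gaps between control peaks, 15 held at least 36 genes, 10 at least 44 and 3 at least 65. Of 3241 gaps between RH4 NFYB peaks, 41 held at least 36 genes. Copy number was not measured, and entries of the RH4 lists carry a second set of coordinates; the part of either in these intervals was not tested.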

How the data were processed

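The members, gene lists and alternatives were chosen with earlier results of these data known. Peak positions came from the authors' deposited lists on hg38; the IgG libraries were not analysed here. Column 5, the place of a score, holds a constant of 1 in every deposited file. Per the file headers, HOMER findPeaks (factor style) made each RH30 list on its own, at 2-fold over an input (S3), 4-fold over the local 10000 bp and a Poisson p of 0.0001. The input filter took out 99.5%, 98.0%, 99.5% and 99.4% of putative peaks in sgCtrl1, sgCtrl2, sgCCAAT2a and sgCCAAT2b, from libraries of 13.9 M, 10.5 M, 21.2 M and 28.2 M tags. For RH4, depth is unknown and the caller was not given in the sources used here. Tools named per the submitters' processing notes, without versions or roles, were Bowtie2, MACS2, HOMER, bedtools, deepTools, Trimmomatic and FastQC.

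Genes were the 20037 protein-coding genes of RefSeq GRCh38.p14; 15842 had a promoter sequence with strand. The promoter table's start equals an outer gene end in 10726. Overlaps of at least 1 bp were counted in Python 3.11.15 and tested on simulated data, where 200 of 200 planted genes were recovered in each class, and 24 of 24 gene counts equalled those of bedtools 2.31.1. Intervals used scipy 1.17.1. No p-value was computed, since each condition has 1 library.

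Named genes were PAX3, FOXO1, MYOD1 and CDK4; up to 6 members per list and side in alphabetical order; the 15 RH4-side genes with the widest RH4 NFYB peak; the 15 RH30-side genes with the lowest mean relative place in both control files; and members of intervals of 1 Mb with at least 4 genes of a side. Printed promoters were the first 5 of each group of 15 with CCAAT, off chromosome 8, shown where the box lay inside the deciding peak. Alternatives were windows of 500 and 3000 bp, the peak centre in the window, each control left out, absence within 10000 bp, 50% of each list, and loci counted once. The 50% kept for presence were the widest peaks in RH4 and the first entries in RH30. The annotated start, and RH4 presence by NFYB or NFYC or by both, were added after seeing the data. Some members that this rule covers are not reported here by name.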

Additional observations from a re-analysis of the deposited data

How the results depend on the processing

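No paired analysis was possible because each condition has 1 library and no test was run. Of 84 values under 11 alternatives, 61 stayed within the main interval, or within 1.5 times the main count, and 23 moved. Without sgCtrl1 the RH30 side had 1066 genes, with NFYC at 17.6%, CCAAT at 38.5% and both edited libraries at 7.60%, and on the RH4 side NFYC was at 73.6% and either edited library at 21.9%. Without sgCtrl2 the RH4 side had 822 genes, with either edited library at 11.6%, and on the RH30 side NFYC was at 33.4%, CCAAT at 55.5% and both edited libraries at 23.9%. Another setting kept 50% of each list for presence, the widest peaks in RH4 and the first entries in RH30. It gave 145 RH4-side and 59 RH30-side genes, with NFYC at 87.6% and 50.8% and CCAAT at 61.7% and 84.3%. Either edited library was at 22.1% on the RH4 side, and both were at 54.2% on the RH30 side. These settings use fewer libraries or fewer peaks. Of the alternatives chosen after seeing the data, the annotated start gave CCAAT at 56.7% on the RH4 side, and it has 402 and 191 genes, of which 350 and 168 were members. It cannot call the 4195 genes without a promoter sequence, among them 91 RH4-side and 40 RH30-side members and every gene of chromosome 8 on either side. RH4 presence by NFYB or NFYC left 142 genes on the RH30 side. Presence by NFYB and NFYC gave CCAAT at 58.8% and either edited library at 11.6% on the RH4 side; the cause was not tested. Windows of 500 and 3000 bp, the peak centre, absence within 10000 bp and loci moved none of these values.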
